A study of Mus musculus with 16 samples.

Results

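The 36 genes described here encode enzymes and carriers of amino acid catabolism and the urea cycle in the liver. They were taken by name from a list that was chosen with earlier results of these data known. Their names were looked up among the 13006 genes of a liver RNA-seq table, without a filter on measured values. All 36 were found, and all 36 passed the filter on low counts that left 12918 genes. The livers came from mice with the genotype Humanized PXR-CAR-CYP3A4/3A7, which every group carried. PXR and CAR are nuclear receptors that sense foreign compounds and bile acids, and CYP3A4 and CYP3A7 are human drug-metabolising enzymes. The groups were EM (ethinylestradiol at 10 mg/kg under the skin for 7 days, plus oral MI763F, 2.5 mg/kg, over 6 days that began on day 2), EV (the same ethinylestradiol course without MI763F), CM (the same MI763F course without ethinylestradiol) and CV (the propylene glycol vehicle), with 4 libraries each. Ethinylestradiol, EE below, is a synthetic estrogen that causes cholestasis, a failure of bile flow. MI763F is named in the series as a CAR ligand. The labels used here give no age, sex, pregnancy state, background strain or design of the humanised alleles, and do not state if EV and CV mice were gavaged with the oral formulation alone. They also do not tie each library to an animal, so the p-values below measure the spread between these samples.

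The liver removes the nitrogen of amino acids as urea. Glutaminase, glutamate dehydrogenase and the transaminases supply ammonia and aspartate, and the urea cycle enzymes Cps1, Otc, Ass1, Asl and Arg1 turn them into urea and ornithine. The remaining carbon is taken apart by a separate pathway for each amino acid, and much of this machinery is made by hepatocytes near the portal vein. Methionine is handled through S-adenosylmethionine, the methyl donor of the cell, which Mat1a makes and Gnmt uses.

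RefSeq promoters on build GRCm38.p6 were at hand for 26 of the 36 genes. A copy of AGGTCA, the core letters bound by many nuclear receptors, stood in the 250 bases before the start of 12 of these 26 promoters (46.2%) on either strand, against 14% of 32851 promoters of all genes. Here and below, members were counted once per gene and the background once per promoter. That background was not limited to genes tested in these livers, so the shares are not like for like. The 4 promoters below are shown because Prodh2 and Gnmt had the largest falls under EE, Hpd had the next largest and holds no such copy, and Uroc1 holds one but rose. Capitals mark TGACCT, which is AGGTCA read on the other strand. Prodh2 lies at chr7:30493408-30493657 on the plus strand, Gnmt at chr17:46729166-46729415 on the minus strand, Hpd at chr5:123182724-123182973 on the minus strand and Uroc1 at chr6:90333039-90333288 on the plus strand.
Prodh2: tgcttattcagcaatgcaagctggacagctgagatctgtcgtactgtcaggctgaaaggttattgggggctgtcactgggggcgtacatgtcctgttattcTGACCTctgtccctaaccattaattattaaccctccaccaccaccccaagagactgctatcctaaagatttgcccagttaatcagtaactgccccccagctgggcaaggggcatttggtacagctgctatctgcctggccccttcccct
Gnmt: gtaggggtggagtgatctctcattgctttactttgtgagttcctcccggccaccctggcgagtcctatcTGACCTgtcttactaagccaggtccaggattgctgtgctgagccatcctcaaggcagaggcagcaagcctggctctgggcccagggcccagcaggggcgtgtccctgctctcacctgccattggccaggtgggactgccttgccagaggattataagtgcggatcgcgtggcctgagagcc
Hpd: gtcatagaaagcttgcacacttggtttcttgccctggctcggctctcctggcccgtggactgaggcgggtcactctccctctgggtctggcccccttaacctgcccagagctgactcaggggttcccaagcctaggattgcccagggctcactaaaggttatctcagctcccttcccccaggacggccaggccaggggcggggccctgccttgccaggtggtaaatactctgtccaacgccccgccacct
Uroc1: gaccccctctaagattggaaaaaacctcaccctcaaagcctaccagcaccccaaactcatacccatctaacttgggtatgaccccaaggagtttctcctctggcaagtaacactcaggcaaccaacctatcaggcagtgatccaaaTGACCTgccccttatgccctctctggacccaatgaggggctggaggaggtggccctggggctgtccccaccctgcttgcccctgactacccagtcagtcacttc
CCAAT stood in 15 promoters (57.7%, against 33.8% of all), GGGCGG in 11 (42.3%, against 32.7%) and TATAAA in 3 (11.5%, against 12.4%), all on either strand. The estrogen response element GGTCANNNTGACC was found in 0 of the 26 promoters and in 0.0639% of all. The element TGACGTCA, bound by cAMP-activated factors, was found in 0 of the 26 and in 1.55% of all. Another 11 motifs were searched on both strands. An HNF4 type direct repeat matched 2 (7.69%, against 0.505% of all), TGACG, which is part of TGACGTCA, matched 1 (3.85%, against 17.8%) and TGATGNAA, an amino acid response element, matched 1 (3.85%, against 3.45%). The nuclear receptor repeats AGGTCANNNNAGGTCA (0.0152% of all), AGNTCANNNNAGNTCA (0.103%), TGAACTNNNNNNAGGTCA (0%) and AGGTCANAGGTCA (0.0335%), which contain the core letters or variants of them, matched 0. CAAAGTCCA (0.384%), GTTAATNATTAAC (0.00913%), TTGCGCAAT (0.0487%) and GNACANNNTGTNC (0.387%), known for HNF4, HNF1, CEBP and the glucocorticoid receptor, also matched 0. All 17 motifs were chosen after expression values had been seen, a match is a run of letters only, and binding was not measured.

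Depth ran from 14115384 to 21473227 estimated counts per library. The main axis of variation (48.3% of variance) separated libraries with EE from those without. EM replicate 1 lay nearest the EV libraries on that axis, and CM replicate 2 stood apart on the next one (6.17%), with CV replicates 1 and 2 apart on its opposite side. Counts that rest on EM replicate 1 and CM replicate 2 are therefore also given without both, and those that rest on CV replicates 1 and 2 without that pair. Levels are counts scaled to library size (CPM) with TMM composition factors. Fold changes are log2 ± standard error from edgeR's quasi-likelihood test, and a gene is said to have risen or fallen where the p adjusted by Benjamini-Hochberg over all 12918 genes was under 0.05. With plain library totals in place of TMM factors the median of all genes shifted by 0.49 log2 in EV against CV, by 0.38 in EM against CM and by -0.11 in EM against EV.

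The question of EV against CV is what EE did to these genes without the ligand. Transcripts for amino acid breakdown were lower for most of the list. Of the 36 genes, 29 fell and 3 rose, with a median log2 fold change of -1.44. Among all tested genes 24.9% fell and 25.5% rose, 50.4% in all, and the median was 0.00. Falls ran from 1.24-fold for Kmo to 9.03-fold for Prodh2. At least 2-fold falls were seen for 24 members (66.7%), against 8.98% of all genes, and at least 4-fold falls for 9 (25%), against 2.36%. With library totals the counts were 25 falls and 6 rises, and the median was -0.95. Without CV replicates 1 and 2 they were 28 falls and 2 rises, and Arg1 (adjusted p = 0.0791) and Cbs (adjusted p = 0.0648) lost their calls. The summed level of the 36 genes was 11237 to 13389 CPM in EV livers and 25671 to 31592 CPM in CV livers, so the ranges did not overlap. Every EV library was below every CV library for 30 of the 36 genes and above for 2, where 22.7% of all tested genes were below in this way and 24.6% above (47.3% in all).

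**Figure D1:**
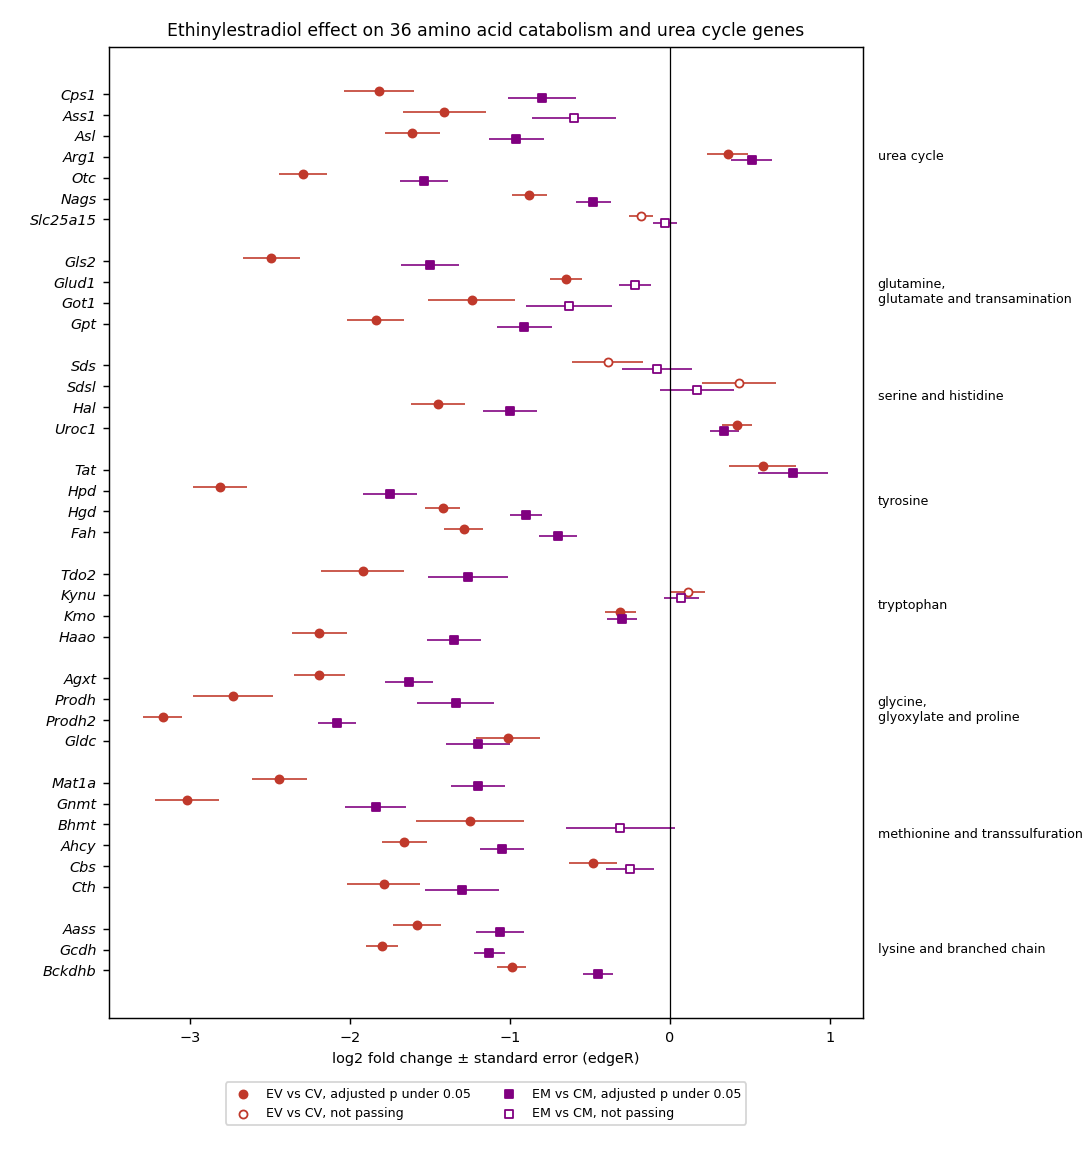
Log2 fold change ± standard error (horizontal axis) of each of the 36 genes, grouped by pathway, for EV against CV (red circles) and EM against CM (purple squares). Filled symbols mark an adjusted p under 0.05. Most points lie left of 0, the EM against CM points lie closer to 0 for 28 of the 29 genes that fell in EV livers, and Arg1, Uroc1 and Tat lie to the right in both.

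In the urea cycle, 5 of 7 members fell, 1 rose and 1 did not pass the test. Otc (ENSMUSG00000031173), which joins ornithine and carbamoyl phosphate, was at 53.4, 51.9, 65.1 and 54.5 CPM in the EV libraries and at 235, 309, 286 and 273 CPM in the CV libraries. Every EV library was below every CV library, and the log2 fold change was -2.29 ± 0.15 (adjusted p = 2.4e-08). Arg1 (ENSMUSG00000019987), which releases urea in the last step, went the other way. It was at 2437, 2126, 1936 and 2407 CPM in the EV libraries and at 1647, 1869, 1768 and 1647 CPM in the CV libraries. The groups did not overlap and the log2 fold change was 0.36 ± 0.13 (adjusted p = 0.0273). That call was lost when EV replicate 1, EV replicate 4, CV replicate 1 or CV replicate 4 was left out, with an adjusted p of up to 0.0879.

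The remaining steps fell to different degrees. Cps1, which makes carbamoyl phosphate, fell by 1.82 ± 0.22 on the log2 scale (adjusted p = 6.23e-06), and Nags, which makes the activator of Cps1, fell by 0.88 ± 0.11 (adjusted p = 8.53e-06). Asl fell by 1.61 ± 0.17 (adjusted p = 1.84e-06) and Ass1 by 1.41 ± 0.26 (adjusted p = 0.000355). These enzymes split and make argininosuccinate. Slc25a15, the mitochondrial ornithine carrier, was at 139 to 144 CPM in EV livers and 150 to 166 CPM in CV livers, with a log2 fold change of -0.18 ± 0.08 that did not pass (adjusted p = 0.0577). With library totals its value was 0.30 and passed in the other direction (adjusted p = 0.00509).

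The urea cycle therefore changed in proportion as well as in level. Levels can be set side by side between genes because the deposited values behave as scaled by gene length. Arg1 was the most abundant of the 36 genes in each of the 4 EV libraries and the 6th most abundant in each of the 4 CV libraries. The Arg1 to Otc ratio of CPM was 29.7 to 45.7 in EV livers and 6.04 to 7.02 in CV livers. The Arg1 to Cps1 ratio was 6.13 to 9.84 in EV livers and 1.73 to 2.13 in CV livers. Such ratios within a library do not depend on the scaling factors.

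**Figure D2:**
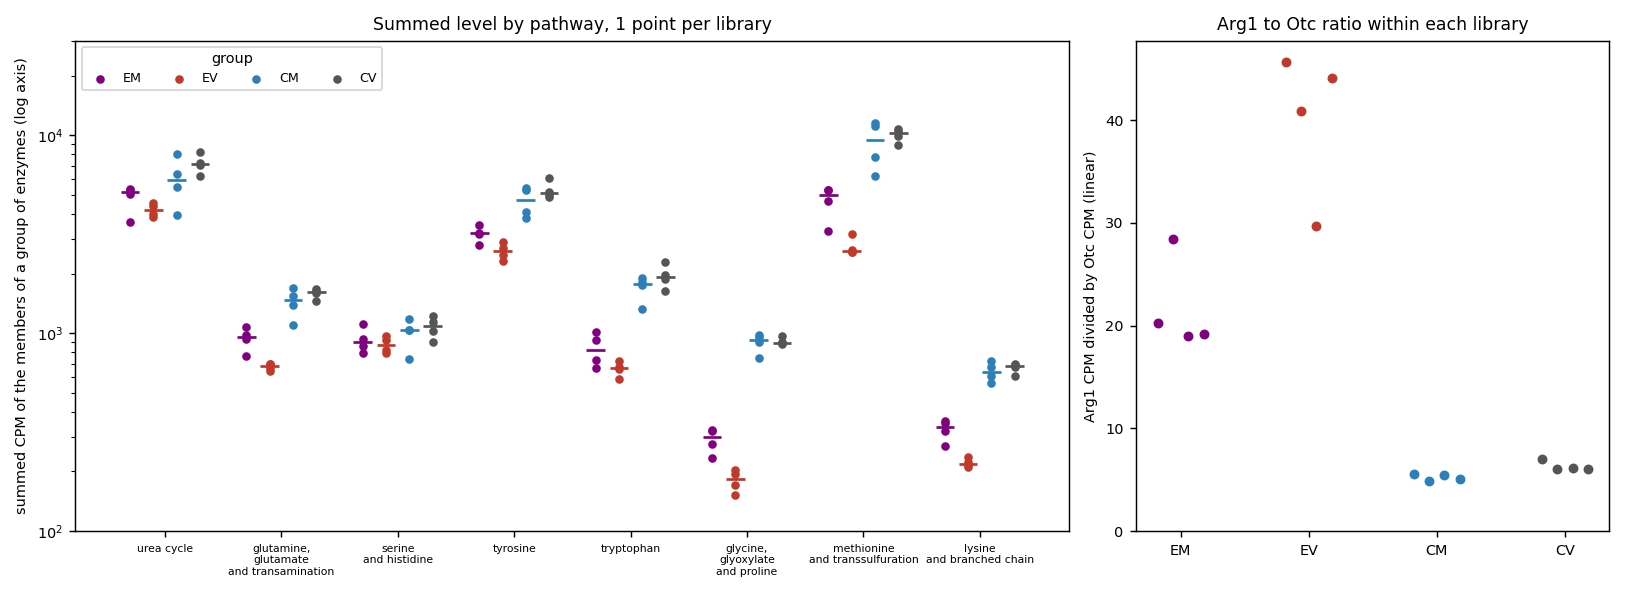
Left, summed CPM (log axis) of the members of each pathway, with 1 point per library, the groups EM, EV, CM and CV from left to right and a line at each median. Right, CPM of Arg1 divided by CPM of Otc in each library (linear axis), which was 19 to 28.4 in EM, 29.7 to 45.7 in EV, 4.85 to 5.51 in CM and 6.04 to 7.02 in CV.

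All 4 members of glutamine, glutamate and transamination metabolism fell. Gls2 (ENSMUSG00000044005), the glutaminase of the adult liver, was at 51.3, 50.1, 53.7 and 69.4 CPM in the EV libraries and at 294, 351, 295 and 322 CPM in the CV libraries. The groups were far apart, with a log2 fold change of -2.49 ± 0.18 (adjusted p = 6.68e-08). Glud1 (ENSMUSG00000021794), glutamate dehydrogenase, was at 387, 401, 356 and 389 CPM in the EV libraries and at 561, 606, 620 and 616 CPM in the CV libraries. Its fall was smaller, at -0.65 ± 0.10 (adjusted p = 7.8e-05), without overlap, but with library totals it was no longer called. Gpt, alanine aminotransferase, fell by 1.84 ± 0.18 (adjusted p = 7.46e-07), and Got1, the cytosolic aspartate aminotransferase, by 1.24 ± 0.27 (adjusted p = 0.00146).

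Histidine breakdown split at its opening steps, and serine dehydration showed no call. Hal (ENSMUSG00000020017), which turns histidine into urocanate, was at 102, 80, 89.5 and 114 CPM in the EV libraries and at 236, 289, 274 and 253 CPM in the CV libraries. It was lower in every EV library, at -1.45 ± 0.17 (adjusted p = 5.65e-06). Uroc1 (ENSMUSG00000034456), which takes urocanate further, was at 347, 367, 326 and 379 CPM in the EV libraries and at 232, 283, 259 and 288 CPM in the CV libraries. It was higher in every EV library, at 0.42 ± 0.09 (adjusted p = 0.00167). Sds, serine dehydratase, had a log2 fold change of -0.39 ± 0.22 (adjusted p = 0.159), and Sdsl, a related enzyme at 12.8 to 23 CPM over both groups, had 0.43 ± 0.23 (adjusted p = 0.134).

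Tyrosine breakdown also split at its opening steps, but there the first enzyme rose and the next fell. Tat (ENSMUSG00000001670), tyrosine aminotransferase, was at 1820, 1556, 1555 and 1913 CPM in the EV libraries and at 1153, 1569, 648 and 1213 CPM in the CV libraries. The groups overlapped, since CV replicate 2 was above the 2 lowest EV libraries, and the log2 fold change was 0.58 ± 0.21 (adjusted p = 0.0354). That call was lost when EV replicate 1, EV replicate 4, CV replicate 1, CV replicate 3 or CV replicate 4 was left out, with an adjusted p of up to 0.0935. Hpd (ENSMUSG00000029445), 4-hydroxyphenylpyruvate dioxygenase, acts on the product of Tat. It was at 401, 346, 462 and 474 CPM in the EV libraries and at 2641, 3263, 3082 and 2818 CPM in the CV libraries. The fall was 7.01-fold, at -2.81 ± 0.17 (adjusted p = 1.48e-08), with no overlap. The Tat to Hpd ratio was 3.36 to 4.54 in EV livers and 0.21 to 0.481 in CV livers. Hgd and Fah, which complete the pathway, fell by 1.42 ± 0.11 (adjusted p = 6.86e-08) and by 1.29 ± 0.12 (adjusted p = 5.11e-07).

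Of the tryptophan genes, 3 of 4 fell. Haao (ENSMUSG00000000673), which opens the ring of 3-hydroxyanthranilate on the way to NAD, was at 133, 124, 144 and 153 CPM in the EV libraries and at 641, 686, 593 and 610 CPM in the CV libraries. The groups did not overlap, and the log2 fold change was -2.19 ± 0.17 (adjusted p = 1.28e-07). Tdo2, the entry enzyme, fell by 1.92 ± 0.26 (adjusted p = 1.87e-05). Kmo fell by 0.31 ± 0.09 (adjusted p = 0.0142), a call that was lost without CV replicate 3 and turned to 0.18 without a call (adjusted p = 0.136) with library totals. Kynu had 117 to 143 CPM in EV livers and 111 to 128 CPM in CV livers, at 0.11 ± 0.11 (adjusted p = 0.417). Both act on kynurenines in the middle of the pathway. Among these 4 members the falls were large at the entry and at Haao, and small or absent at Kmo and Kynu. Of 9 other tryptophan genes tested, 4 fell, Afmid among them, where 24.9% of all tested genes fell.

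All 4 genes of glycine, glyoxylate and proline breakdown fell. Prodh2 (ENSMUSG00000036892), which oxidises hydroxyproline, was at 25.4, 26.1, 33.9 and 30 CPM in the EV libraries and at 272, 241, 263 and 266 CPM in the CV libraries. This was the largest fall among the 36 genes, at -3.17 ± 0.12 (adjusted p = 1.49e-10), and the groups were far apart. Prodh (ENSMUSG00000003526), proline dehydrogenase, was at 28.1, 23.6, 27.1 and 28.9 CPM in the EV libraries and at 147, 211, 156 and 203 CPM in the CV libraries. It fell by 2.73 ± 0.25 (adjusted p = 5.72e-07), with no overlap. Agxt, which detoxifies glyoxylate, fell by 2.19 ± 0.16 (adjusted p = 5.3e-08), and Gldc, of the glycine cleavage system, by 1.01 ± 0.20 (adjusted p = 0.000614).

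All 6 methionine and transsulfuration genes fell. Gnmt (ENSMUSG00000002769), which spends S-adenosylmethionine on glycine, was at 339, 334, 405 and 414 CPM in the EV libraries and at 2798, 3322, 2915 and 3077 CPM in the CV libraries. The fall was 8.13-fold, at -3.02 ± 0.20 (adjusted p = 2.97e-08), with no overlap. Mat1a (ENSMUSG00000037798), the S-adenosylmethionine synthase of hepatocytes, was at 317, 322, 353 and 476 CPM in the EV libraries and at 1951, 1938, 2024 and 2055 CPM in the CV libraries. It fell by 2.44 ± 0.17 (adjusted p = 5.25e-08), again without overlap. Its counterpart outside the adult hepatocyte, Mat2a, was higher at 0.34 ± 0.11 (adjusted p = 0.0196), and the Mat1a to Mat2a ratio was 6.04 to 12.2 in EV livers and 48.4 to 59.8 in CV livers. Cth, which makes cysteine, fell by 1.79 ± 0.23 (adjusted p = 1.38e-05), and Ahcy, which splits S-adenosylhomocysteine, by 1.66 ± 0.14 (adjusted p = 2.62e-07). Bhmt, which remethylates homocysteine with betaine, fell by 1.25 ± 0.34 (adjusted p = 0.00714). Cbs, at the entry to transsulfuration, fell by 0.48 ± 0.15 (adjusted p = 0.0178). The Bhmt call was lost with library totals, where Cbs stood at 0.01 (adjusted p = 0.971), and the Cbs call was also lost without EV replicate 2.

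The lysine and branched chain genes all fell. Gcdh (ENSMUSG00000003809), glutaryl-CoA dehydrogenase, was at 112, 115, 114 and 109 CPM in the EV libraries and at 367, 401, 408 and 393 CPM in the CV libraries. The spread within each group was small beside the gap, and the log2 fold change was -1.80 ± 0.10 (adjusted p = 5.19e-09). Bckdhb (ENSMUSG00000032263), a subunit of the branched chain ketoacid dehydrogenase, was at 48.8, 48.3, 58.9 and 54.1 CPM in the EV libraries and at 110, 110, 101 and 95.7 CPM in the CV libraries. It fell by 0.99 ± 0.09 (adjusted p = 6.44e-07), with no overlap. Aass, the entry enzyme of lysine breakdown, fell by 1.58 ± 0.15 (adjusted p = 9.82e-07).

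Taking Arg1, Tat and Uroc1 together, these 3 genes made up 32.6 to 37.7% of the summed CPM of the 36 genes in EV livers and 9.55 to 11.8% in CV livers. In whole liver, fewer cells of a type and less RNA per cell cannot be told apart, and markers of several other cells moved with these results. The counts below stand against 25.5% of all tested genes that rose and 24.9% that fell in EV against CV. Of 8 hepatocyte markers, 6 fell in EV against CV and the median was -0.88. Their summed level was 44297 to 54773 CPM in EV livers and 101462 to 127179 CPM in CV livers, and albumin fell by 1.27 ± 0.17. Of 13 macrophage markers, 11 rose, and their sum was 2309 to 2701 CPM in EV livers and 384 to 986 CPM in CV livers. All 10 proliferation genes rose, with sums of 108 to 140 CPM in EV livers and 34.2 to 43.5 CPM in CV livers. All 5 tested erythroid markers rose, with sums of 2527 to 3469 CPM in EV livers and 984 to 1967 CPM in CV livers. Of 10 endothelial markers, 6 rose, with sums of 268 to 306 CPM in EV livers and 105 to 217 CPM in CV livers. Of 8 tested lymphoid and neutrophil markers, 5 rose, with sums of 78.3 to 159 CPM in EV livers and 11.3 to 27.8 CPM in CV livers. Of 4 tested cholangiocyte markers, 2 rose (131 to 197 CPM in EV livers, 40.4 to 57.5 CPM in CV livers). Among 10 stellate cell markers 3 rose and 1 fell, and of 2 tested acinar markers 1 rose. The sums of these last lists overlapped between the groups. Stellate sums were 200 to 220 CPM in EV livers and 181 to 335 CPM in CV livers. Acinar sums were 15.5 to 29.8 CPM in EV livers and 17.2 to 29.8 CPM in CV livers. No tested marker on these lists was at 0 in every library of any group. The part of these shifts in the falls of the 36 genes was not tested.

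The comparison of EM with CM measures the EE effect in mice that all received MI763F, and shares no library with EV against CV. In EM livers 24 of the 36 genes fell and 3 rose, with a median log2 fold change of -0.91, where 18.6% of all tested genes fell and 19.4% rose (38.1% in all). The 3 that rose were again Arg1 at 0.51 ± 0.13 (adjusted p = 0.00548), Uroc1 at 0.34 ± 0.09 (adjusted p = 0.009) and Tat at 0.77 ± 0.22 (adjusted p = 0.0102). All 24 that fell were among the 29 that fell in EV livers. The other 5 of the 29, Ass1, Glud1, Got1, Bhmt and Cbs, stood between -0.63 and -0.22 and did not pass. With EM replicate 1 and CM replicate 2 left out, 24 fell and 4 rose, and with library totals 20 fell and 5 rose. EM libraries were all below CM libraries for 23 genes and all above for 2, against 16.8% and 18.6% of all tested genes (35.4% in all). Of the hepatocyte markers 6 of 8 also fell in EM against CM, and of the macrophage markers 12 of 13 rose.

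All 36 genes had the same sign in both comparisons, and across the genes, which are not independent replicates, Pearson's r of the log2 fold changes was 0.96 (Spearman's rho 0.94), against 0.72 across all genes. Among the 29 genes that fell in EV livers, 28 had the smaller change in EM against CM, the exception being Gldc at -1.20 ± 0.20 against -1.01 ± 0.20. These 29 were picked by their call in EV against CV, which by itself favours a smaller value in the second comparison. The same share among all genes that fell was not computed. Prodh2 remained the largest fall, at 53.7, 52.4, 69.2 and 71.6 CPM in the EM libraries and 262, 236, 269 and 277 CPM in the CM libraries (log2 fold change -2.08 ± 0.12, adjusted p = 2.12e-08). Gnmt was at 602, 757, 918 and 900 CPM in the EM libraries and 2169, 2021, 3396 and 3823 CPM in the CM libraries (-1.84 ± 0.19, adjusted p = 5.6e-06). Both genes were lower in every EM library than in any CM library, and CM replicates 1 and 2 were the low CM libraries for Gnmt.

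**Figure D3:**
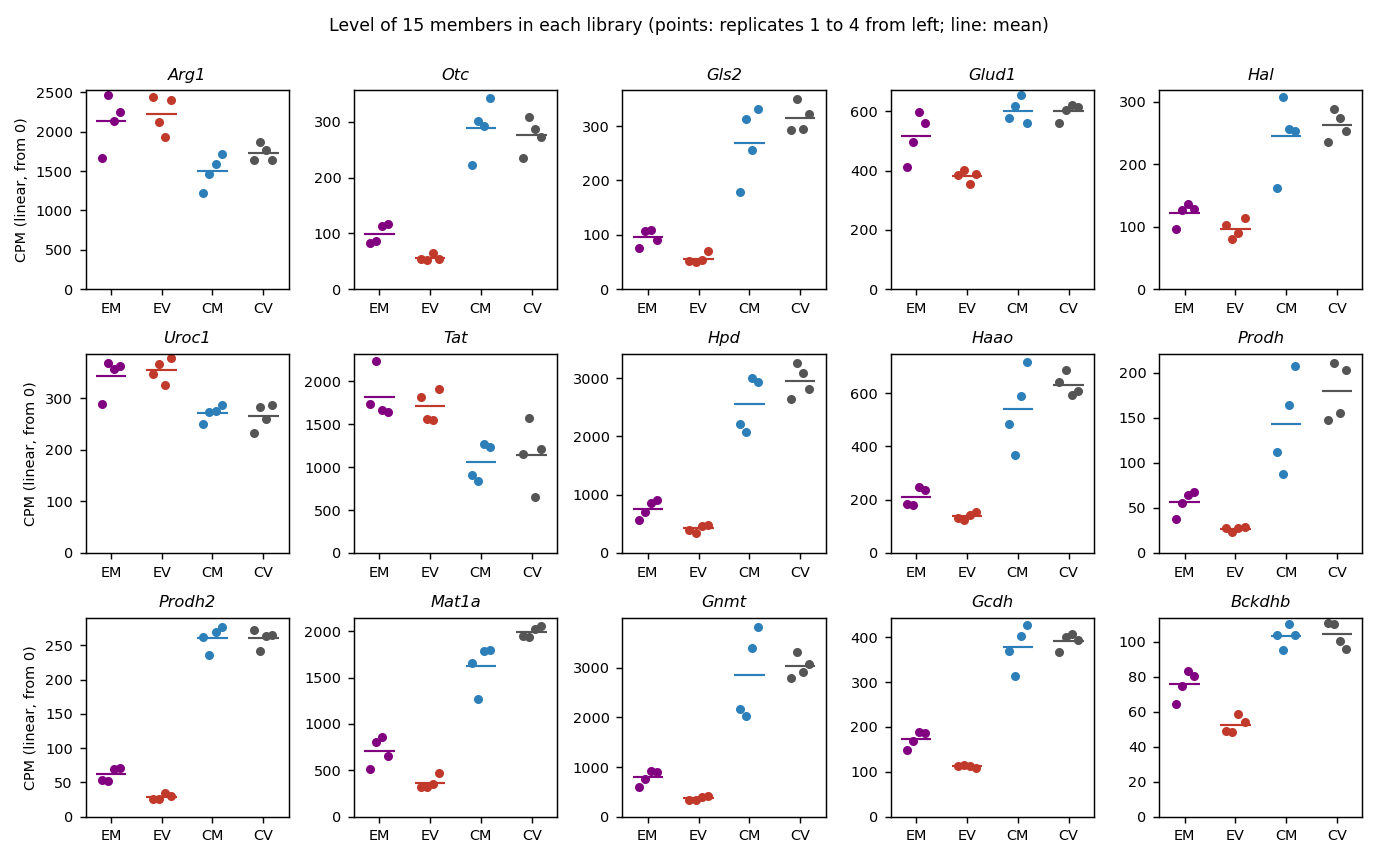
Level in CPM (vertical axis, linear, from 0) of 15 members in each library, with groups EM, EV, CM and CV from left to right, 1 point per replicate and a line at the mean. EM points lie above EV points and below CM and CV points for genes such as Otc, Hpd, Prodh2 and Gnmt, while Arg1, Uroc1 and Tat have higher means in both EE groups.

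Without EE, the ligand left no call. In CM against CV, 0 of the 36 genes passed edgeR's quasi-likelihood test, with a lowest adjusted p of 0.434, and DESeq2 also called 0. At an unadjusted p under 0.05 there was 1, Gldc at 0.45 ± 0.20, against 10.5% of all tested genes. Of all genes 0.0929% were called. Log2 fold changes ran from -0.38 to 0.45 with a median of -0.12. Libraries of the groups did not overlap for 2 members, Fah and Mat1a, both lower in CM, against 4.13% of all tested genes. Prodh2 averaged 261 ± 18 CPM in CM livers and 261 ± 13 CPM in CV livers (SD, n = 4 each), and Otc averaged 289 ± 50 CPM in CM livers and 276 ± 31 CPM in CV livers (SD, n = 4 each). Spread within CM was wide for some members, such as Bhmt, which had 779 CPM in CM replicate 2 and 2035 to 3294 CPM in the other CM libraries.

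With EE present, the ligand went with higher levels of part of the list. In EM against EV, edgeR's quasi-likelihood test called 10 rises and 0 falls, and 0 members had a negative fold change at an unadjusted p under 0.05, where 1.51% of all tested genes rose and 0.178% fell (1.69% in all). The median log2 fold change of the 36 genes was 0.43. Most members fell under EE, so all tested genes are an unlike background here too. The share of members called, 27.8%, was near that of genes marking the position of hepatocytes in the lobule. Of 8 periportal genes outside the list 2 rose (25%, median 0.42), and of 11 pericentral genes 3 rose (27.3%, median 0.69). On these lists 0 fell. EM libraries were all above EV libraries for 17 genes, where 6.56% of all tested genes were above and 3.98% below (10.5% in all). EM and EV share the EE course, and the EV libraries also enter EV against CV, so these values are set side by side and not correlated. The count rested on few libraries: it was 2 without EV replicate 1, 2 without EV replicate 2, 6 without EM replicate 3, 5 without EM replicate 4 and 15 without EM replicate 1. Without EM replicate 1 and CM replicate 2 together it was 18, without CV replicates 1 and 2 it was 7, and by DESeq2 it was 17. Over all tested genes the reported fit called 218. That count was 41 without EV replicate 1, 36 without EV replicate 2, 68 without EM replicate 3 and 64 without EM replicate 4. It was 445 without EM replicate 1, and 606 without EM replicate 1 and CM replicate 2. Without CV replicates 1 and 2 it was 174, and by DESeq2 it was 566. Median log2 fold changes of the marker lists in EM against EV were 0.04 for hepatocytes, -0.17 for macrophages and -0.51 for proliferation genes, whose part in the rises was not tested.

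The largest rise was that of Prodh2, whose EM values of 52.4 to 71.6 CPM lay above all EV values of 25.4 to 33.9 CPM (log2 fold change 1.10 ± 0.12, adjusted p = 0.000286). It was called with any library left out, and so was Gcdh, at 148, 168, 188 and 187 CPM in the EM libraries against 109 to 115 CPM in the EV libraries (0.62 ± 0.10, adjusted p = 0.00549). Gnmt, at 602 to 918 CPM in EM livers and 334 to 414 CPM in EV livers, rose by 1.09 ± 0.19 (adjusted p = 0.00943). Neither group overlapped the other for any of these 3 genes. Mat1a was at 510, 806, 860 and 658 CPM in the EM libraries and 317 to 476 CPM in the EV libraries (0.95 ± 0.17, adjusted p = 0.00973). Otc was at 82.4, 86.8, 112 and 117 CPM in the EM libraries and 51.9 to 65.1 CPM in the EV libraries (0.83 ± 0.14, adjusted p = 0.00954). Bckdhb was at 64.2, 74.6, 83.3 and 80.5 CPM in the EM libraries and 48.3 to 58.9 CPM in the EV libraries (0.53 ± 0.09, adjusted p = 0.00954). For these 3 genes too the groups did not overlap.

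The last 4 calls were closer to the threshold or were lost more often. Hpd was at 568.7, 697, 857 and 916 CPM in the EM libraries and 346 to 474 CPM in the EV libraries (0.85 ± 0.16, adjusted p = 0.0179). Prodh was at 37.7, 55.9, 64.3 and 67.6 CPM in the EM libraries and 23.6 to 28.9 CPM in the EV libraries (1.07 ± 0.24, adjusted p = 0.0398). In both cases EM replicate 1 was the EM library nearest to EV. Gls2 was at 74.9, 107, 109 and 89.9 CPM in the EM libraries and 50.1 to 69.4 CPM in the EV libraries (0.76 ± 0.18, adjusted p = 0.0421). Glud1 was at 413, 496, 599 and 560 CPM in the EM libraries and 356 to 401 CPM in the EV libraries (0.43 ± 0.10, adjusted p = 0.0433). Gls2, Glud1 and Prodh were not called with library totals. EM replicate 1 had the lowest EM level of 9 of the 10 called genes.

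The 3 genes that rose under EE had small values for the ligand in EM against EV. Arg1 had -0.06 ± 0.13 (adjusted p = 0.903), Uroc1 -0.04 ± 0.09 (adjusted p = 0.913) and Tat 0.09 ± 0.21 (adjusted p = 0.924). EM livers also stayed apart from vehicle livers. For 26 of the 36 genes every EM library was below every CV library, for 2, Uroc1 and Tat, every EM library was above, and for 8 the libraries overlapped. Among all tested genes 18.1% were below in this way and 19.4% above, 37.5% in all. Of the 10 genes that rose with the ligand, 9 were still below every CV library, the exception being Glud1. Mean levels of Prodh2 were 61.7 CPM in EM, 28.9 CPM in EV and 261 CPM in CV livers. The Arg1 to Otc ratio was 19 to 28.4 in EM livers and 29.7 to 45.7 in EV livers.

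**Figure D4:**
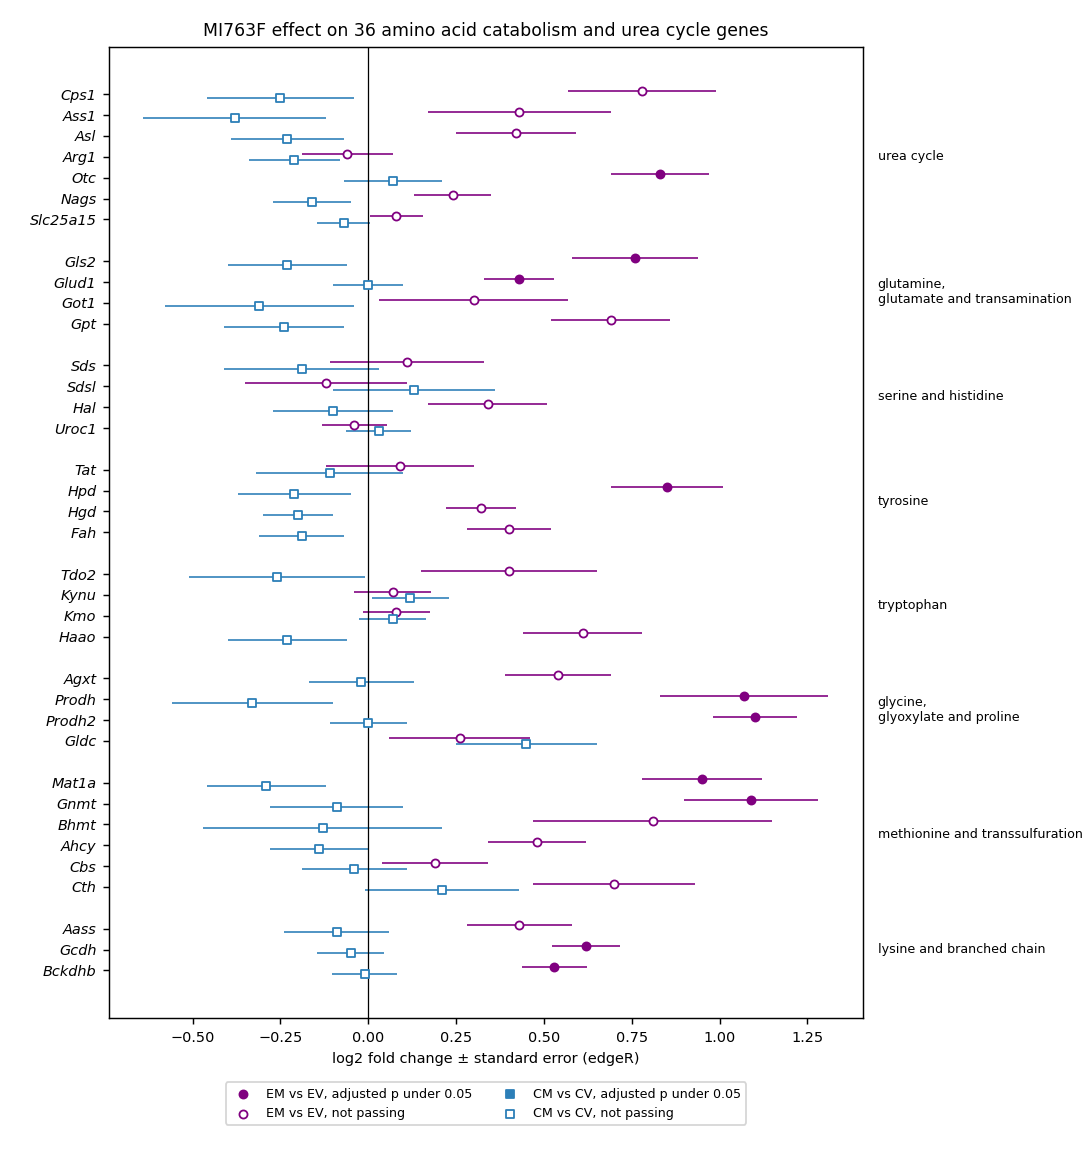
Log2 fold change ± standard error (horizontal axis) of each of the 36 genes for MI763F with EE (EM against EV, purple circles) and without EE (CM against CV, blue squares). Filled symbols mark an adjusted p under 0.05: 10 genes for EM against EV, all to the right of 0, and 0 genes for CM against CV.

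The difference between the ligand effects with and without EE (EM against EV minus CM against CV, on the log2 scale) was tested as an interaction. It passed for 1 gene, Prodh2, at 1.09 ± 0.16 (adjusted p = 0.0122), where 0.132% of all tested genes passed. The Prodh2 call held with any 1 library left out, with an adjusted p of up to 0.0469, but was lost without both CV replicate 1 and CV replicate 2, at 1.11 (adjusted p = 0.0684). The difference was positive for 32 of the 36 genes (51.1% of all genes), and 21 members had an unadjusted p under 0.05 (13.6% of all genes). In EV against CV 31 of the 36 genes had a negative change, while 24.9% of all tested genes fell and 25.5% rose. The all-gene shares are therefore an unlike background, and shares among all genes that fell were not computed. For the 29 genes that fell, the 28 positive differences restate the smaller changes in EM against CM given above. The next smallest adjusted p was 0.0542, for Mat1a at 1.24 ± 0.23. The count of calls was 13 without EM replicate 1, 8 without CM replicate 4, 2 without EV replicate 4, 9 without EM replicate 1 and CM replicate 2, and 14 by DESeq2. Over all tested genes the reported fit called 17. That count was 208 without EM replicate 1, 95 without CM replicate 4 and 16 without EV replicate 4. It was 157 without EM replicate 1 and CM replicate 2, and 450 by DESeq2.

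Other genes of the same pathways were taken from a list of 110, of which 101 were tested. In EV against CV 69 fell and 14 rose (82.2% called), with a median of -0.88. Among all tested genes 24.9% fell and 25.5% rose (50.4% called). Car5a, the mitochondrial carbonic anhydrase that supplies bicarbonate to Cps1, fell by 3.98 ± 0.28, more than any member. It was at 5.52, 4.81, 8.57 and 7.35 CPM in the EV libraries and at 85.6, 110, 107 and 112 CPM in the CV libraries. Slc25a13, the aspartate carrier that feeds Ass1, fell by 1.71 ± 0.14. Gamt, which uses S-adenosylmethionine to make creatine, fell by 2.49 ± 0.25, and Pipox, which oxidises sarcosine, the product of Gnmt, by 1.97 ± 0.12. Aldh4a1, which acts after both proline and hydroxyproline oxidation, fell by 1.62 ± 0.15. The amino acid transporters showed 8 falls among 10 tested, with Slc16a10 at -2.22 ± 0.16 and Slc38a4 at -1.62 ± 0.16.

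Among the rises, Psat1, of serine synthesis, rose by 3.33 ± 0.61, with 4.95 to 6.3 CPM in EV livers and 0 to 1.15 CPM in CV livers. In EM against CM 66 of the 101 genes fell and 12 rose, where 18.6% of all tested genes fell and 19.4% rose. In EM against EV the 8 called genes (7.92%) all rose, where 1.51% of all tested genes rose. Among the 8 were Car5a at 1.41 ± 0.26, Pipox at 0.78 ± 0.12 and Slc16a10 at 0.77 ± 0.15. Glul, the glutamine synthetase of cells near the central vein, was another, at 0.60 ± 0.14.

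A further list of 28 genes held regulators of hepatic metabolism together with genes that respond to hormones or stress, such as Igfbp1, Fkbp5, G6pc and Pck1, the last of which is also on the periportal list. In EV against CV 16 of them fell and 2, Igfbp1 and Ddit4, rose (64.3% called, against 50.4% of all tested genes). In EM against EV edgeR's quasi-likelihood test called 0 of the 28, with 1 at an unadjusted p under 0.05, and DESeq2 called 1. Of all 12918 tested genes edgeR called 1.69%, with 1642 at an unadjusted p under 0.05, and DESeq2 called 566. With so small a share called among all genes, a count of 0 in 28 says little about these genes. Gcgr, the glucagon receptor, fell by 0.90 ± 0.09, with 97.5 to 112 CPM in EV livers and 180 to 209 CPM in CV livers. Klf15, a factor known to drive amino acid breakdown genes, fell by 1.65 ± 0.19, and Cebpa, a hepatocyte factor, by 1.63 ± 0.19. Ddit4, a stress-induced inhibitor of mTORC1, rose by 2.51 ± 0.36. Genes that mark the position of hepatocytes in the lobule fell on both sides. Of 8 periportal genes outside the list 5 fell and 1 rose, and 10 of 11 pericentral genes fell. Among all tested genes 24.9% fell and 25.5% rose. The periportal genes were mixed: Cdh1 rose by 1.53 ± 0.57, while Cyp2f2 (-0.30 ± 0.25) and Pck1 (-0.06 ± 0.12) did not pass. Median log2 fold changes were -1.65 for periportal and -1.82 for pericentral genes, so falls were seen on both of these marker lists. Where in the lobule the genes of amino acid breakdown fell was not tested, since whole liver RNA does not separate these positions.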

How the data were processed

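Liver poly(A) RNA was sequenced, per the labels' protocols, and the submitters' processing notes list build GRCm39, STAR and Salmon with no version or role. Annotation, counting tool and strand setting were not stated in these sources. The authors deposited estimated counts per gene, all whole numbers, for 13006 genes in 16 libraries. Their smallest nonzero values shrink as exon length grows, as for values scaled by gene length, so they were tested as counts but are not raw reads, and levels between genes were compared as approximately per length. The higher MI763F dose in the labels' protocols was not analysed here. Some genes on the lists are counted but not reported by name here.

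Symbols came from the GENCODE M21 annotation, made for an earlier build, and matched 12692 identifiers. Sample titles gave the group and replicate number (4 groups of 4 libraries), and totals were 14115384 to 21473227. At most 3.24% of genes held equal values in any pair of libraries. Counts were filtered with filterByExpr (12918 genes left), scaled with TMM factors and fitted in edgeR 4.0.16 on R 4.3.3 by glmQLFit (robust) with 1 coefficient per group, all 16 libraries and 12 residual degrees of freedom. The biological coefficient of variation was 0.284. Tests were adjusted by Benjamini-Hochberg over all tested genes with a threshold of 0.05. The scripts were tested on simulated counts. Figures used matplotlib 3.10.9 and motif searches Python 3.11.15.

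The genes and lists were chosen with earlier results of these data known. Values per library are printed for the member with the smallest p of each pathway in EV against CV, the 6 largest called falls, up to 6 called rises, and every member called in CM against CV, EM against EV or the interaction. From the other lists, genes were named mostly from the called ones with the smallest p, and Mat2a was added after its values were seen. Cdh1, Cyp2f2, Pck1, Igfbp1, Fkbp5 and G6pc were also named outside that rule. Alternatives were RLE factors, library totals, a filter set at 1 CPM in 8 libraries, no filter, DESeq2 1.42.0, limma 3.58.1 with a trend and a prior count of 2, only the groups compared, a replicate block and leaving out each library. Leaving out EM replicate 1 with CM replicate 2, and CV replicate 1 with CV replicate 2, was added after seeing the data. Deviations of same-numbered libraries from their group means were correlated above 0.1 in 0 of 24 pairs, which does not exclude a pairing.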

Additional observations from a re-analysis of the deposited data

Results flagged for a closer look

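In 8 of 144 tests, each on the 4 libraries of a group, a library lay far from the other 3 (Dixon's test at its 95% critical value), where chance gives about 1 in 20. With ethinylestradiol and MI763F, Uroc1 was at 289 CPM in EM replicate 1 against 357 to 369 CPM in the other EM libraries, and Cbs was at 256 CPM there against 349 to 358 CPM. Tat was at 2236 CPM in EM replicate 2 against 1637 to 1734 CPM in the others. With ethinylestradiol alone, Cth was at 149 CPM in EV replicate 3 against 106 to 107 CPM, and Slc25a15 at 144 CPM in EV replicate 4 against 139 to 140 CPM. In vehicle livers, Aass was at 129 CPM in CV replicate 1 against 179 to 183 CPM, Fah was at 675 CPM in that library against 624 to 632 CPM, and Hgd was at 634 CPM in CV replicate 2 against 513 to 523 CPM.

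The effect of MI763F on Prodh2 differed by 1.09 log2 between mice with and without ethinylestradiol (adjusted p = 0.0122 by edgeR's quasi-likelihood test of the interaction). All 4 EM libraries were above all 4 EV libraries, while CM and CV libraries overlapped.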

How the results depend on the processing

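The count of called genes stayed within 1.5 times the reported one under every alternative run for EV against CV (32; 30 to 33 with a library left out) and EM against CM (27; 26 to 29), and was 0 throughout for CM against CV. For EM against EV (10) it was 17 by DESeq2, 18 without EM replicate 1 and CM replicate 2, and 2 to 15 with a library left out. For the interaction (1) it was 14 by DESeq2, 2 with the filter of 1 CPM in 8 libraries, 2 by limma, 9 without EM replicate 1 and CM replicate 2, and 1 to 13 with a library left out. Without CV replicates 1 and 2 edgeR called 0 members in the interaction, where 19 had an unadjusted p under 0.05. Counts over all tested genes also changed between these fits, as given above for most of them. The causes were not tested. Library totals reversed the direction of 5 values that were called in the reported fit or with library totals. Slc25a15 stood at 0.30 and Kmo at 0.18 in EV against CV, with Cbs at 0.007 there. In EM against CM Slc25a15 stood at 0.34 and Kmo at 0.072. Over all members, comparisons and alternatives, 4468 of 4644 values were counted as unchanged, 97 gained a call, 74 lost it and 5 reversed. A change of sign was counted only where the value was called in either fit. Values without a call could change sign and still count as unchanged. Bhmt in CM against CV, for example, ran from -0.337 to 0.162 with a library left out. Correlations of deviations between same-numbered libraries ran from -0.05 to 0.10 over 24 pairs, so no pairing was seen, but such correlations cannot exclude one. With a replicate block the counts were 32 in EV against CV, 27 in EM against CM, 13 in EM against EV and 7 in the interaction. The deposited values are scaled estimates and not reads, which limits what can be said of low genes.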
